A study of Gossypium arboreum with 12 samples.

Results

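Class III peroxidases are represented here by 4 probe sets of the cotton GeneChip, out of 21791 transcript probe sets in the deposited table. They are all the probe sets that the study's list of transcripts differing between its lines at 10 dpa (days post anthesis) pairs with either of 2 *Arabidopsis* peroxidase loci. Each probe set takes up its signal through several short probes, and its gene name is that of the nearest *Arabidopsis* match. Ghi.7950.1.S1_at and Ghi.8105.1.A1_s_at were matched to AT5G06720.1, named peroxidase 2. Ghi.1043.4.S1_at and Ghi.8110.1.S1_at were matched to AT5G05340.1, named Peroxidase superfamily protein. The list holds 220 probe sets chosen on the arrays of 10 dpa, so every difference that includes those arrays is a description of the 4 probe sets and was not tested for them. The arrays of 0 dpa were not used to choose them, and the difference between the lines there was tested.

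The study compared ovules of 2 lines of diploid cotton, *Gossypium arboreum*, at 0 dpa, when fibre cells start to grow out of the ovule surface, and at 10 dpa, when they elongate. The fuzzy-linted line (*FL*) is the wild type, whose ovules bear lint fibre, and the fuzzy-lintless line (*Fl*) is the mutant ANOI 1960, which bears short fuzz but no lint. Both lines were grown in the field, and each line had 3 arrays at each stage, each from a separate biological replicate, 12 arrays in all. The methods call the lines near isogenic after crossing, and the study adds that they were not perfectly so, coming from a first backcross generation. A difference between the lines therefore cannot be told apart from one of genetic background. RNA came from whole ovules, a mixture of fibre and other cells, in which fewer cells of a type and less RNA per cell cannot be told apart.

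Class III peroxidases are secreted plant enzymes with a haem group, and they form a large gene family. They use hydrogen peroxide to oxidise phenolic compounds, which couples lignin monomers and cross-links wall proteins and polysaccharides and so stiffens the wall. In another reaction cycle they release oxygen radicals that can cut wall polysaccharides and loosen the wall. In *Arabidopsis*, AT5G06720 is PRX53, and AT5G05340 is PRX52, which takes part in lignin synthesis in the stem. Elongation of a cotton fibre depends on how far its wall can yield, and hydrogen peroxide has long been studied in that tissue.

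The deposited log2 signals are centred, so that 0 is the median of each probe set. A level is therefore given on the log2 scale relative to the median of its own probe set, and levels of different probe sets cannot be set against each other. The array medians lay between -0.051 and 0.024. Values spread most on the *FL* arrays of 10 dpa (SD 0.489 to 0.501) and less on the others (0.347 to 0.364). Bacterial transcripts spiked in as hybridization controls (27 probe sets) were lower in *Fl* than in *FL* by 0.65 on the log2 scale at 0 dpa and by 0.15 at 10 dpa. For replicate 1 of *FL* at 10 dpa the title and source say 10 dpa but the stage field says 0 dpa. It was kept at 10 dpa, and over the probe sets, which are no independent replicates, it correlated at 0.914 and 0.915 with the other *FL* arrays of that stage.

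The 4 probe sets showed 2 shapes. In 3 of them the level was high on the *FL* arrays of 10 dpa and low on all 9 others, and in Ghi.8110.1.S1_at the level was low on the *Fl* arrays of 10 dpa and higher on all 9 others. Both shapes gave a lower level in *Fl* than in *FL* at 10 dpa, which is what the list selected. On all 4 the 3 *Fl* arrays of 10 dpa lay below the 3 *FL* arrays, as they did in 19.2% of all probe sets.

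Peroxidase 2 probe set Ghi.7950.1.S1_at had the widest difference of the 4. Its levels were 0.01, 0.17 and -0.20 in *FL* and -0.01, 0.09 and -0.18 in *Fl* at 0 dpa. The levels of 10 dpa were 6.05, 6.24 and 5.92 in *FL* and -0.31, -0.39 and -0.04 in *Fl*. The *FL* arrays of 10 dpa stood far above all the others, and the *FL* and *Fl* arrays of 0 dpa overlapped. At 10 dpa the level was 79.8-fold lower in *Fl* (log2 difference -6.32, standard error 0.12, 3 arrays per line), the third lowest value of that difference among 21791 probe sets. Within *FL* it was 67.5-fold higher at 10 dpa than at 0 dpa (log2 6.08, standard error 0.12), which ranked 10 among all probe sets. After quantile normalization was repeated on the deposited values these log2 differences were smaller, at -4.79 between the lines and 4.55 within *FL*. Within *Fl* the log2 difference between the stages was -0.21 (standard error 0.12), and the arrays of the stages overlapped.

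The other probe set for peroxidase 2, Ghi.8105.1.A1_s_at, had the same order with a smaller difference. Its ending _s_at marks probes shared with related transcripts, so more than 1 gene of the family may feed its signal. At 0 dpa its levels were -0.17, 0.03 and -0.39 in *FL* and 0.02, -0.10 and 0.24 in *Fl*. At 10 dpa they were 2.94, 2.88 and 2.84 in *FL* and -0.02, -0.06 and -0.17 in *Fl*. Again the 3 *FL* arrays of 10 dpa were alone in being high. The level at 10 dpa was 7.84-fold lower in *Fl* (log2 -2.97, standard error 0.11), and within *FL* it was 8.35-fold higher at 10 than at 0 dpa (log2 3.06). Repeated quantile normalization gave -1.83 and 1.93 for these. The stages of *Fl* overlapped, with a log2 difference of -0.14.

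Ghi.1043.4.S1_at, matched to the PRX52 locus, had the widest gap between the lines at 0 dpa, in the direction opposite to that at 10 dpa. At 0 dpa the levels were -0.51, -0.89 and -0.91 in *FL* and 0.33, 0.12 and 0.47 in *Fl*. At 10 dpa they were 2.97, 2.82 and 2.77 in *FL* and -0.27, -0.24 and -0.12 in *Fl*. All 4 groups were separate, in the order *FL* at 10 dpa, *Fl* at 0 dpa, *Fl* at 10 dpa and *FL* at 0 dpa from the highest to the lowest. At 10 dpa the level was 8.34-fold lower in *Fl* (log2 -3.06, standard error 0.12). The stage difference was 12.3-fold upward in *FL* (log2 3.62) and 1.43-fold downward in *Fl* (log2 -0.51, standard error 0.12). Repeated quantile normalization gave -1.94 between the lines at 10 dpa and 2.45 within *FL*.

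Ghi.8110.1.S1_at, matched to the same PRX52 locus, had another shape. At 0 dpa the levels were 0.06, -0.11 and -0.18 in *FL* and 0.33, 0.33 and 0.36 in *Fl*. At 10 dpa they were 0.06, 0.24 and -0.06 in *FL* and -2.36, -2.13 and -2.36 in *Fl*. The *FL* arrays of both stages overlapped, with a log2 difference between the stages of 0.15 (standard error 0.093), whereas in *Fl* the level was 6.16-fold lower at 10 dpa than at 0 dpa (log2 -2.62, standard error 0.093). At 10 dpa it was 5.14-fold lower in *Fl* than in *FL* (log2 -2.36), the smallest difference of the 4 and above the 3-fold limit of the list. No peroxidase just under that limit can be given, since the sources used here name probe sets only where they passed it.

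**Figure D1:**
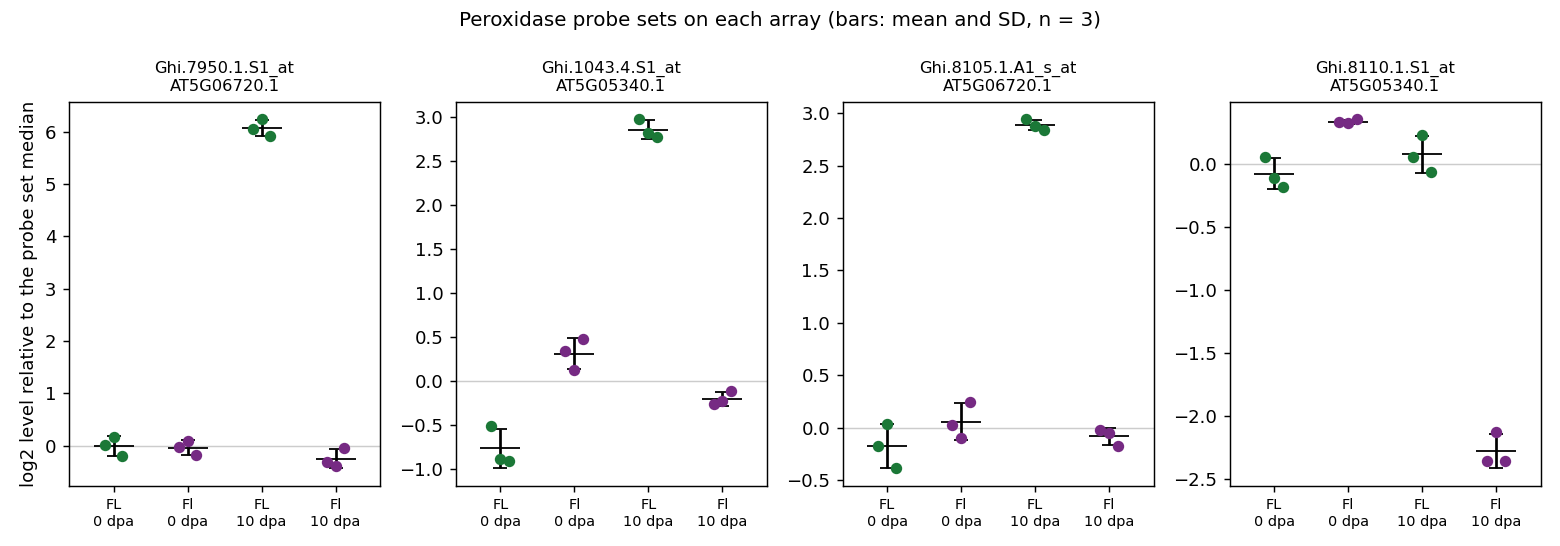
Log2 level of each peroxidase probe set, relative to its own median, on the 12 arrays (points, green *FL* and purple *Fl*), with the mean and SD of the 3 arrays of each group; the vertical scale differs between panels. In the first 3 panels the *FL* arrays of 10 dpa are alone in being high, up to 6.24 for Ghi.7950.1.S1_at, and in the last panel the *Fl* arrays of 10 dpa are alone in being low, between -2.36 and -2.13.

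The difference between the lines at 10 dpa equals the difference at 0 dpa plus the stage difference in *Fl* minus that in *FL*, and this sum sets the shapes apart. For Ghi.7950.1.S1_at the value of -6.32 was made of -0.03, -0.21 and -6.08, so nearly all of it lay in *FL*. For Ghi.8105.1.A1_s_at the value of -2.97 was made of 0.23, -0.14 and -3.06. For Ghi.1043.4.S1_at the stage differences of -0.51 in *Fl* and 3.62 in *FL* were offset in part by the opposite difference of 1.08 at 0 dpa. For Ghi.8110.1.S1_at the value of -2.36 was made of 0.42, -2.62 and -0.15, so most of it lay in *Fl*.

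Of all probe sets, 227 (1.04%) were called lower in *Fl* at 10 dpa, at an adjusted p of 0.01 or less (Benjamini-Hochberg in limma) and a fold of 3 or more, and the 4 peroxidases were among them by choice. By the same limits 157 of the 227 were called higher at 10 than at 0 dpa in *FL* and not called lower in *Fl*. Only 23 were called lower at 10 dpa in *Fl* and not called higher in *FL*, 3 were called both ways, and 44 neither way. Ghi.7950.1.S1_at, Ghi.1043.4.S1_at and Ghi.8105.1.A1_s_at had the shape of the 157, and Ghi.8110.1.S1_at that of the 23. Over all probe sets 2.94% were called higher at 10 dpa in *FL* and 1.08% lower at 10 dpa in *Fl*.

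**Figure D2:**
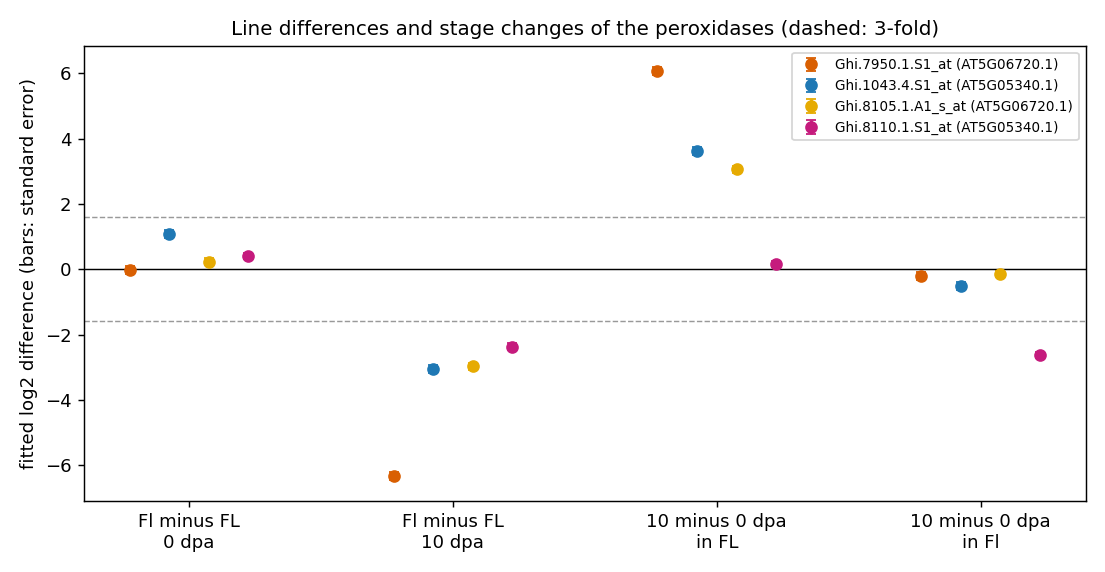
Fitted log2 differences of the 4 peroxidase probe sets between the lines at each stage and between the stages in each line, with standard errors from the fit to all 12 arrays (some are smaller than the points). Values at 10 dpa lie between -6.32 and -2.36, and Ghi.8110.1.S1_at is the only one of the 4 near 0 for the stage difference in *FL* (0.15) and far below 0 in *Fl* (-2.62).

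**Figure D3:**
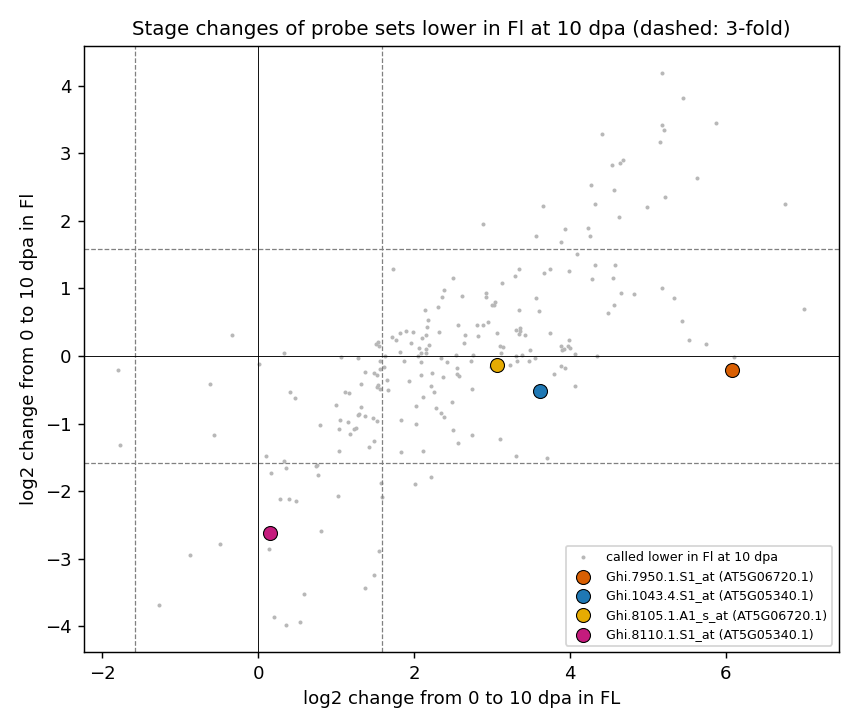
Log2 difference between 10 and 0 dpa in *FL* (horizontal) and in *Fl* (vertical) for the 227 probe sets called lower in *Fl* at 10 dpa, with the peroxidases in colour. The first 3 lie to the right near 0 on the vertical axis, at 3.06, 3.62 and 6.08 in *FL*, and Ghi.8110.1.S1_at lies low on the left at 0.15 in *FL* and -2.62 in *Fl*.

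At 0 dpa, before the difference of 10 dpa had opened, neither probe set for peroxidase 2 passed the test between the lines, and both probe sets of the PRX52 locus were higher in *Fl*. With an adjusted p of 0.01 or less at any fold, 2 of the 4 were called, both higher, where 10.2% of all probe sets were called in either direction and 4.95% as higher. With the further limit of 3-fold none of the 4 was called (0 of 4 in limma, where 0.381% of all probe sets were). An unadjusted p under 0.05 was found for 2 in limma and 2 under the methods' t-test. In limma at least the 10.2% of all probe sets called above passed that looser limit too, and its full share is not given here. Ghi.1043.4.S1_at was 2.11-fold higher in *Fl* (log2 1.08 with a standard error of 0.12, adjusted p = 8.4e-05 by Benjamini-Hochberg in limma), with 3 of 3 *Fl* arrays above every *FL* array, and it ranked 144 among all probe sets by that difference. Its 95% interval was 0.82 to 1.33. On the arrays of 0 dpa alone its adjusted p was 0.0023 (Benjamini-Hochberg in limma). Under the methods' t-test, which called 0 of the 4 at any fold, its adjusted p was 0.037 and that of Ghi.8110.1.S1_at 0.046.

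Ghi.8110.1.S1_at was 1.33-fold higher in *Fl* at 0 dpa (log2 0.42 with a standard error of 0.093, adjusted p = 0.0088 by Benjamini-Hochberg in limma), again on 3 of 3 *Fl* arrays. This call lay close to the limit, and it was not made on the arrays of 0 dpa alone. It was lost, with adjusted p of 0.012 to 0.032 in limma, on leaving out replicate 2 or 3 of *FL* at 0 dpa, any replicate of *Fl* at 0 dpa, replicate 1 of *FL* at 10 dpa, or replicate 1 or 3 of *Fl* at 10 dpa. In 16.0% of all probe sets the 3 *Fl* arrays of 0 dpa lay above the 3 *FL* arrays.

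For Ghi.7950.1.S1_at the log2 difference at 0 dpa was -0.03 with a standard error of 0.12 (adjusted p = 0.90 by Benjamini-Hochberg in limma), with a 95% interval that reached from 1.23-fold lower to 1.18-fold higher in *Fl*. For Ghi.8105.1.A1_s_at it was 0.23 with a standard error of 0.11 (adjusted p = 0.17 by Benjamini-Hochberg in limma), with an interval from 1.01-fold lower to 1.39-fold higher. A 2-sided exact permutation test of the 3 arrays against 3 cannot go below 0.10, and it gave 0.80 for Ghi.7950.1.S1_at, 0.10 for Ghi.1043.4.S1_at, 0.30 for Ghi.8105.1.A1_s_at and 0.10 for Ghi.8110.1.S1_at. After adjustment over these 4 tests the lowest value was 0.20.

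The hybridization controls differed by -0.65 at 0 dpa, and with each array centred on them the median over all probe sets was 0.64 in place of -0.016. The differences of the 4 peroxidases then read 0.62, 1.73, 0.88 and 1.07 in the order Ghi.7950.1.S1_at, Ghi.1043.4.S1_at, Ghi.8105.1.A1_s_at and Ghi.8110.1.S1_at, so that of Ghi.7950.1.S1_at turned its sign, though it stayed just below that median. Relative to the median of all probe sets the order and the distances were as before. The balance of 3′ over 5′ probe sets of 6 housekeeping controls, a sign of RNA integrity, ran from -0.086 to 0.0057 in *FL* and from -0.23 to -0.10 in *Fl* on the arrays of 0 dpa. On those of 10 dpa it ran from -0.18 to 0.078 and from 0.042 to 0.15. These control values are centred on their own medians too, so they compare arrays with each other and do not show whether the RNA was intact. The part of the hybridization controls and of this balance in the differences was not tested.

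**Figure D4:**
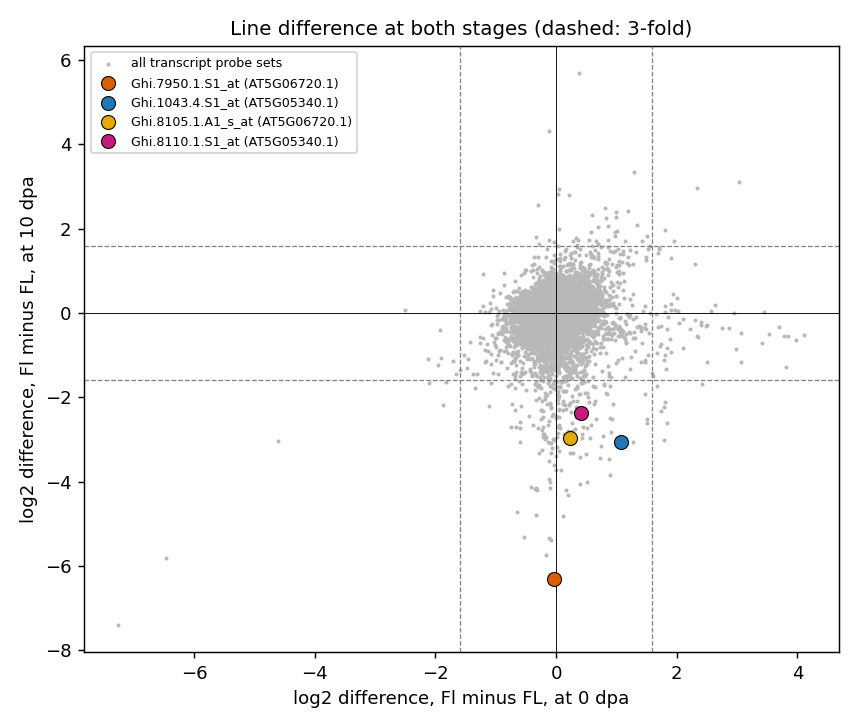
Log2 difference between *Fl* and *FL* at 0 dpa (horizontal) and 10 dpa (vertical) for all 21791 transcript probe sets (grey) and the 4 peroxidases (coloured). All 4 lie below -1.58 on the vertical axis, the 3-fold line, and none lies beyond it on the horizontal axis, where Ghi.1043.4.S1_at is farthest right at 1.08.

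Probe sets that share the leading number of a member's identifier were measured for Ghi.1043.4.S1_at only. Neither Ghi.1043.3.A1_at nor Ghi.1043.4.A1_at is named in the sources used here, and neither followed it. A shared number does not show that they read the same gene, since the study's list ties Ghi.1043.4.S1_at to a transcript cluster of another number. At 10 dpa Ghi.1043.3.A1_at ranged from -0.21 to 0.47 in *FL* and from -0.09 to 0.29 in *Fl*, and Ghi.1043.4.A1_at from -0.01 to 0.39 and from -0.20 to 0.20. Their log2 differences between the lines were -0.05 and -0.18 at 10 dpa. At 0 dpa they were 0.01 (adjusted p = 0.97) and -0.36 (adjusted p = 0.13, both Benjamini-Hochberg in limma), and their groups overlapped at both stages.

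The likeness of the patterns among the 4 was measured by the root mean square (RMS) difference of the values over the 12 arrays, on the log2 scale, in which a lower value means more alike. The measure takes in the size of the differences as well as the order of the groups. Ghi.1043.4.S1_at and Ghi.8105.1.A1_s_at, whose values at 10 dpa were of like size, were the closest pair at 0.359. For Ghi.1043.4.S1_at no more than 3 other probe sets of the whole table were closer than that. The 2 probe sets of peroxidase 2, which had 1 order of groups and differed in size, were 1.61 apart, and the 2 of the PRX52 locus 1.77. Ghi.8110.1.S1_at was far from each of the other 3, at 1.77 to 3.17, and by likeness to it they ranked 21328, 21351 and 21764 in the table.

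Ghi.7950.1.S1_at had its closest pattern in expansin-like B1 (AT4G17030.1), of a family related to the wall-loosening expansins, on both of its probe sets (RMS differences 0.191 and 0.324). Next was a Leucine-rich repeat (LRR) family protein (AT1G33590.1, 0.388). These 3 were lower in *Fl* at 10 dpa by log2 differences of -6.20, -5.73 and -5.38. Closest to Ghi.8105.1.A1_s_at were peptide transporter 3 (AT5G46050.1, RMS difference 0.175), a Transducin/WD40 repeat-like protein (AT3G18950.1, 0.210) and an ethylene-responsive element binding protein (AT3G16770.1, 0.218).

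Closest to Ghi.1043.4.S1_at were an NAD(P)-binding Rossmann-fold protein (AT1G52340.1, RMS difference 0.299), which in *Arabidopsis* is the abscisic acid synthesis enzyme ABA2, Hs1pro-1 protein (AT3G55840.1, 0.333) and its relative HS1 PRO-1 2 (AT2G40000.1, 0.339). The log2 differences at 0 dpa of these 3 were 0.43, 0.92 and 0.44. Closest to Ghi.8110.1.S1_at were pleiotropic drug resistance 7 (AT1G15210.1, 0.235), an ABC transporter, and the hybrid-type ethylene sensor (AT3G23150.1, 0.262), which in *Arabidopsis* is the ethylene receptor ETR2. The third was Ghi.1578.1.S1_s_at (0.365), which has no homolog in the sources used. The stage difference of these 3 in *Fl* was -2.12, -2.11 and -1.90 against -0.09 to 0.40 in *FL*. These are likenesses of pattern over 12 arrays, which fall into 4 groups.

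The genes whose products act beside peroxidases were taken from lists that the study chose by a difference between the lines on the arrays used here. Their directions carry no independent weight and are given as values. Most were chosen by the difference at 10 dpa, and 2 of 3 glutathione S-transferases and 2 of 16 cell wall probe sets by that at 0 dpa. Phenylpropanoid enzymes make the phenolic monomers, and dirigent proteins guide the coupling of the radicals that oxidation makes from them. All 5 probe sets of this list were lower in *Fl* at 10 dpa, with a median log2 difference of -2.87 against 0.044 over all probe sets. The 2 dirigent-like proteins had -4.72 (AT1G64160.1) and -2.87 (AT1G58170.1). An HXXXD-type acyl-transferase (AT5G01210.1) had -3.06, caffeoyl-CoA 3-O-methyltransferase (AT1G67980.2), which methylates a lignin precursor, had -2.02, and nicotinamidase 1 (AT2G22570.1), placed in this list by the study, had -1.85.

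At 0 dpa the median of the phenylpropanoid and dirigent list was -0.29, that of the 4 peroxidases 0.32 and that of all probe sets -0.016. Members of both lists lay on either side of 0, and the difference between the lists was not tested. None of the 5 was called at 3-fold in limma or under the methods' t-test, and 2 had an unadjusted p under 0.05 in each. At any fold the methods' t-test called 0 and limma 1, where limma called 10.2% of all probe sets. No share of all probe sets is given here for the t-test or for the unadjusted limit, so those counts are no result about the list. The 1 called was the dirigent-like AT1G64160.1 at -0.65 (adjusted p = 0.0014, Benjamini-Hochberg in limma). The remaining 4 lay between -0.60 and 0.15.

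Glutathione S-transferases join glutathione to reactive compounds and handle products of oxidation. Glutathione S-transferase TAU 8 (AT3G09270.1) and phi 12 (AT5G17220.1) are the 2 of this list that the study chose by their difference at 0 dpa, so their values are given with no test. TAU 8 stood at a log2 difference between the lines of 1.79 at 0 dpa and -3.01 at 10 dpa, and phi 12 at 2.11 and -0.83. The third (AT1G10370.1) stood at 0.01 and -1.63. TAU 8 was lower at 10 than at 0 dpa in *Fl* (-3.43) and higher in *FL* (1.37), whereas phi 12 was lower in both lines (-4.32 in *Fl* and -1.38 in *FL*).

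Of 16 cell wall probe sets, 9 were 3-fold or more lower and 5 higher in *Fl* at 10 dpa, with a median of -1.65. They ran from expansin-like B1 at -5.73 to FASCICLIN-like arabinogalactan 7 (AT2G04780.2) at 5.68. At 0 dpa 4 of the 16 were called higher and 1 lower at any fold in limma, against 1078 (4.95%) and 1144 of all 21791 probe sets. Among the 4 are the 2 that the study chose on these arrays of 0 dpa, a Xyloglucan endotransglucosylase/hydrolase (AT5G57560.1) at 2.31 and expansin A1 (AT1G69530.2) at 2.00, which were the only ones of 3-fold or more. The first of these cuts and rejoins xyloglucan chains, and expansins loosen the wall.

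The study places all 4 peroxidases under ethylene as well, there by their match to a further *Arabidopsis* peroxidase locus (AT5G19880.1). Ethylene is a hormone that promotes fibre elongation in cotton ovule culture. The other 13 probe sets under that heading were lower in *Fl* at 10 dpa by 3-fold or more, with a median of -2.50. They ran from an ethylene-forming enzyme (AT1G05010.1, Gra.2141.1.S1_s_at), which makes ethylene in its last step, at -5.33 to a Protein kinase superfamily protein (AT5G55560.1) at -1.88. At 0 dpa 2 of the 13 were called higher and 1 lower at any fold in limma, where 1078 (4.95%) and 1144 of all 21791 probe sets were. The only one of the 13 called at 3-fold, as 0.381% of all probe sets were, was ethylene responsive element binding factor 1 (AT4G17500.1). It was higher in *Fl* by 1.74 (adjusted p = 1.2e-06, Benjamini-Hochberg in limma). The methods' t-test called 0 of the 13 there, with 6 under an unadjusted p of 0.05 against 3 in limma. For the t-test and the unadjusted limit no share of all probe sets is given here, so these counts are no result about the list.

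**Figure D5:**
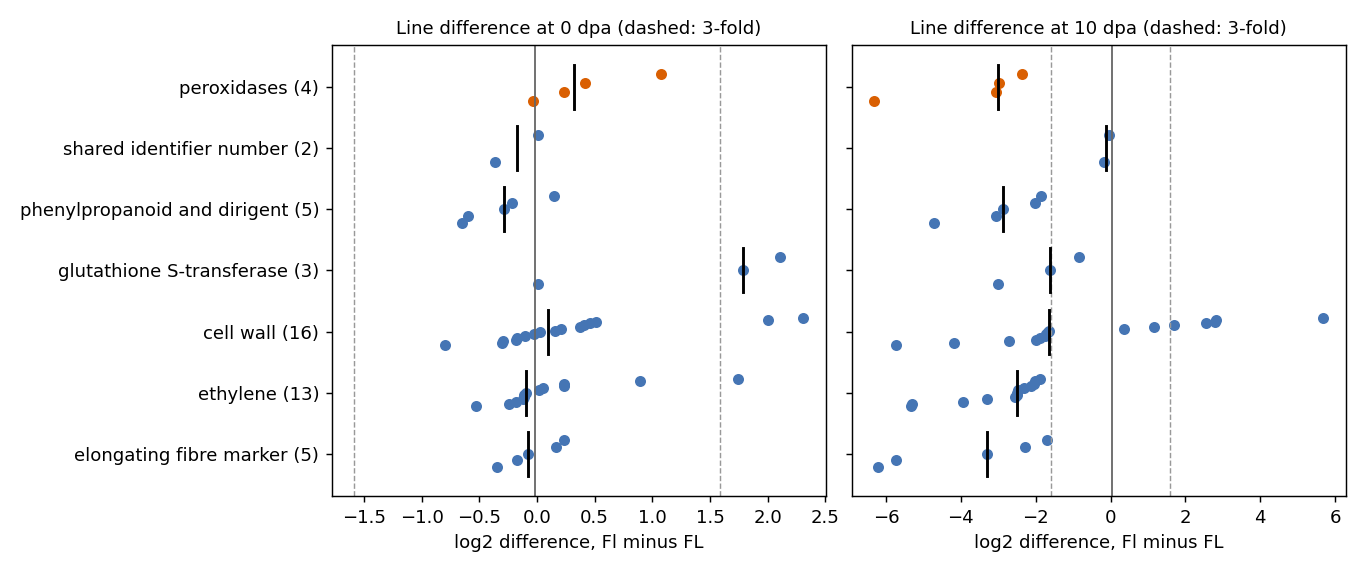
Log2 difference between *Fl* and *FL* at 0 dpa (left) and 10 dpa (right) for each probe set of the peroxidases and the other lists (the number of probe sets in brackets), with a short black line at each list's median and a long grey line at the median of all probe sets; the height of a point within its row carries no value. The peroxidase median is 0.32 at 0 dpa and -3.01 at 10 dpa, and the 5 fibre markers have -0.08 and -3.31.

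The markers of the elongating fibre used here, like the 4 peroxidases, were lower in *Fl* at 10 dpa. The study listed both by that difference, so their common direction was fixed by the choice. The 5 marker probe sets were expansin-like B1 (2 probe sets), beta-6 tubulin (AT5G12250.1), profilin 5 (AT2G19770.1) and actin depolymerizing factor 5 (AT2G16700.2), and they come from the study's lists of differing transcripts. All 5 were 3-fold or more lower in *Fl* at 10 dpa, by log2 differences of -6.20, -5.73, -3.31, -2.28 and -1.69. Their mean level was 3.79 to 4.05 on the *FL* arrays of 10 dpa and -0.003 to 0.16 on the *Fl* arrays of 10 dpa. At 0 dpa it was -0.31 to -0.20 in *FL* and -0.34 to -0.27 in *Fl*. There 0 of the 5 were called at any fold in limma, where 10.2% of all probe sets were, or under the methods' t-test. An unadjusted p under 0.05 was found for 1 in limma and 2 under the methods' t-test. Neither for that limit nor for the t-test is a share of all probe sets given here, so these counts are no result about the markers. The part of fibre tissue in the peroxidase levels was not tested. Since the values are centred per probe set, it cannot be read from them whether a marker was absent in any group, and the sources used here name no probe set for a marker of other ovule tissue. For Ghi.8110.1.S1_at the *FL* arrays of 0 and 10 dpa overlapped, while the mean level of the 5 markers in *FL* was higher at 10 dpa on every array. Whether this bears on fibre tissue was not tested.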

How the data were processed

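Ovules of 2 cotton lines at 2 stages were measured on 12 Affymetrix cotton GeneChips, 3 biological replicates per group. The authors corrected, quantile normalized and summarised the probe intensities by RMA in GeneSpring and deposited log2 values for 21791 transcript and 98 control probe sets. Each is centred on its own median, and how this and the selection of probe sets were done is not given in the sources used here. Brightness and presence are therefore unknown, and the number of arrays limits the precision.

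All transcript probe sets were fitted in limma 3.58.1 (R 4.3.3) with a mean per group, and p-values were adjusted by Benjamini-Hochberg over all of them. A call needed an adjusted p of 0.01 or less and, where stated, a fold of 3. The fit was tested on simulated data. The peroxidases, the lists and the tests were chosen with earlier results of these data known. Named are all peroxidases, probe sets sharing their identifier number, their 3 nearest patterns, whole lists of 5 or fewer, and in longer lists the extremes at 10 dpa and those called at 0 dpa. Alternatives were repeated quantile normalization, centring on hybridization controls, the methods' t-test, the arrays of 0 dpa alone, fewer probe sets, any fold, replicate number as a block and leaving out each array. No probe or gene sequences or genome positions were used here. Exact tests were run in scipy 1.17.1.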

Additional observations from a re-analysis of the deposited data

Results flagged for a closer look

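For 2 of the 4 peroxidases the lines differed in opposite directions at the 2 stages, with all 3 *Fl* arrays above the *FL* arrays at 0 dpa and below them at 10 dpa. This occurred in 738 (3.39%) of all probe sets, and 4.13% had the opposite order. The choice of the 4 had fixed the lower level in *Fl* at 10 dpa. A nearer background is therefore the 4188 probe sets with all *Fl* arrays below the *FL* arrays at 10 dpa, which include those 738. The log2 difference between the lines moved by -4.14 from 0 to 10 dpa for Ghi.1043.4.S1_at and by -2.78 for Ghi.8110.1.S1_at, and this was not tested, since the arrays of 10 dpa chose both probe sets. The same value of -4.14 for Ghi.1043.4.S1_at came from stage differences that ran opposite ways on all arrays, upward in *FL* and downward in *Fl*. This combination was found in 1.87% of all probe sets. The choice by a lower level in *Fl* at 10 dpa favours it, so that share does not measure how rare it is among probe sets so chosen. The difference between the lines in their stage differences was likewise not tested.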

How the results depend on the processing

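All 4 peroxidases stayed 3-fold or more lower in *Fl* at 10 dpa under repeated quantile normalization, centring on the hybridization controls, the replicate block and each array left out, and 3 stayed 3-fold or more higher in *FL* and 1 lower in *Fl* at 10 than at 0 dpa. Repeated quantile normalization, which narrows arrays that hold large differences, gave smaller values for 3 of them, as stated beside each, and -2.44 at 10 dpa for Ghi.8110.1.S1_at. At 0 dpa 2 of 4 were called at any fold, 1 on the arrays of 0 dpa alone and 1 to 2 with an array left out. Centring on the hybridization controls moved every probe set alike, so that 4 of 4 and 19323 of all 21791 probe sets were called, which says nothing about the peroxidases. Under the methods' t-test 0 were called, with adjusted p of 0.037 and 0.046 for the 2 that limma called, both with an unadjusted p under 0.05. That test's share of all probe sets is not given here. With no limit of fold the main fit called 2. At 3-fold it called 0, in place of which 1 was called after the shift by the hybridization controls. By the same shift the difference of Ghi.7950.1.S1_at read 0.62, and it ran from -0.13 to 0.057 with an array left out, above 0 without replicate 2 of *FL* or replicate 3 of *Fl* at 0 dpa. Same-numbered arrays did not deviate together, with correlations of -0.20 to 0.085 over 18 pairs, and an array correlated best with its own number in 5 of 36 comparisons with another group. With the replicate number as a block 1 of 4 was called at 0 dpa, since Ghi.8110.1.S1_at had an adjusted p of 0.011 in limma, and 1695 in place of 2222 of all probe sets passed at any fold.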
